A study of Mus musculus with 6 samples.

Results

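The phagocyte NADPH oxidase subunits and the enzymes that compete for arginine were followed in cultured fetal mouse lung as 8 genes, of 31053 gene identifiers in the tables. They were taken from a list by symbol: the oxidase genes Cybb, Cyba, Ncf1, Ncf4 and Rac2, and the arginine enzymes Nos2, Arg1 and Arg2. Lungs of wild-type C57BL6 fetuses at E17 were digested, frozen and plated on thin Matrigel in HSPC medium whose additions included IL6, SCF, FGF, VEGF and Flt3. Suspension cells, collected as they floated, and adherent cells, detached and sorted for live VE-cadherin-positive cells, were each sampled on days 4, 5 and 6. This gave 3 suspension and 3 adherent libraries, each made with a 3' droplet kit, and the data hold read counts per gene for the whole library, with no cell axis. Both fractions shared the same tissue, medium and freezing step, and no untreated or uncultured lung is among the libraries. Nothing in the labels states that each day was a culture of its own, and a p-value here speaks of variation among the 6 libraries alone, which may be technical.

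The phagocyte oxidase makes superoxide from oxygen with electrons from NADPH. Its membrane core is the catalytic subunit gp91phox (Cybb) and its partner p22phox (Cyba), and it is switched on when cytosolic subunits, among them p47phox (Ncf1) and p40phox (Ncf4), dock there with the small GTPase Rac2. Loss of one of these phox subunits causes chronic granulomatous disease, in which neutrophils and macrophages take up microbes and fail to kill them. Inducible nitric oxide synthase (Nos2) turns arginine into nitric oxide and citrulline, whereas the cytosolic arginase (Arg1) and the mitochondrial arginase (Arg2) split it into ornithine and urea, so the enzymes draw on the same substrate.

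On mm10 (GRCm38), with GENCODE M21 gene models, all 8 are protein-coding genes. Cybb lies at chrX:9435252-9487771, Cyba at chr8:122424776-122432930 and Ncf1 at chr5:134220053-134229625, each on the minus strand. On chromosome 15, Ncf4 lies on the plus strand at chr15:78244801-78262580 and Rac2 on the minus strand at chr15:78559167-78572783. Nos2 lies at chr11:78920787-78960254 on the plus strand, Arg1 at chr10:24915221-24927484 on the minus strand and Arg2 at chr12:79130777-79156301 on the plus strand. The last 285 bases of Arg2, chr12:79156017-79156301, are also annotated to Vti1b on the opposite strand, and the predicted gene Gm48780 shares 997 bases with Arg2 on the opposite strand. Ncf1 shares 4303 bases with Gtf2ird2, and Cyba all of its 8155 bases with Gm20388, both on the opposite strand.

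The oxidase genes were high and low in the same libraries, so the sequence before the start of 3 of them is shown for comparison. The RefSeq table (GRCm38.p6) held 3 of the 8 genes, and each window is the 250 bases upstream of the RefSeq start, read on the gene's own strand, here the minus strand of chrX:9469325-9469574 for Cybb, chr8:122432941-122433190 for Cyba and chr5:134229626-134229875 for Ncf1. The Cybb window lies inside the GENCODE span, which begins further upstream. Capitals mark matches, on either strand, to the IRF pattern GAAANNGAAA, the CCAAT box and the SP1 pattern GGGCGG.
Cybb: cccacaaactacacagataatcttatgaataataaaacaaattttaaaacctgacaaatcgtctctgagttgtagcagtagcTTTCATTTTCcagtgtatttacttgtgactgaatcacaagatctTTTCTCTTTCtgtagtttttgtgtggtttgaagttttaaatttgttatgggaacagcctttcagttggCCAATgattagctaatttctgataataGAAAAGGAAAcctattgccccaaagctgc
Cyba: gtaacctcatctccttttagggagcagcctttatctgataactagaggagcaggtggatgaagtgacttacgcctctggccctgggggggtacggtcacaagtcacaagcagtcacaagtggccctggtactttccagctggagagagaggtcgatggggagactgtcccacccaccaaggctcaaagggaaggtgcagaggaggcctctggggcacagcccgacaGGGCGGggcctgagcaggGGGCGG
Ncf1: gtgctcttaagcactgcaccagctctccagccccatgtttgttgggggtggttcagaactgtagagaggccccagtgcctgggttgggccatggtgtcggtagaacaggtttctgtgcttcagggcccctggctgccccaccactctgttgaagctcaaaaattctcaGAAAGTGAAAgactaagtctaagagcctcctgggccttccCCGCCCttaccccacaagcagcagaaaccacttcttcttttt
Cybb held 3 IRF matches, beginning 168, 124 and 29 bases before the start, and a CCAAT match at 56 bases. Ncf1 held 1 IRF match at 82 bases and an SP1 match at 42 bases, and Cyba held 2 SP1 matches at 24 and 6 bases and no IRF match. Windows of this length hold the IRF pattern in 3.0% of 32851 RefSeq promoters, the CCAAT box in 33.8% and the SP1 pattern in 32.7%. The PU.1 core GAGGAA, present in 23.3% of promoters, the C/EBP pattern TTGCNNAA, in 9.6%, and TATAAA, in 12.4%, were not found in the 3 windows. Just past the Cybb window, a PU.1 core match on the opposite strand began at base 10 counted from the start. G and C made up 34.0% of the Cybb window, 60.0% of the Cyba window and 54.4% of the Ncf1 window, against a median of 52.4% over all promoters. A match describes the letters and is not a measured binding site.

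Sense counts summed to between 43805361 and 57784974 per suspension library and between 36451255 and 40882433 per adherent library, so a floor of 3 counts corresponds to 0.0594 to 0.0756 CPM (sense counts scaled to library size, with TMM factors). Reads were not collapsed to molecules, so the floor covers counting error only. Of 12 endothelial markers, 10 were lower in suspension, against 29.7% of all genes tested. Erg did not pass (adjusted p = 0.122, edgeR) and Vwf was higher in suspension (19.5 ± 6.81 CPM against 2.49 ± 0.66 CPM in adherent libraries, SD, n = 3 each, adjusted p = 0.00106, edgeR). Cdh5, the gene of VE-cadherin used for the sort, was at 0.170, 0.381 and 0.119 CPM in suspension and at 141, 226 and 79.0 CPM in adherent libraries, in day order. Markers of other cells were detected too. The 14 neutrophil markers summed to 27130 to 79606 CPM in suspension against 275 to 1189 CPM in adherent libraries, and the 14 macrophage markers to 18415 to 20566 CPM against 3053 to 7739 CPM. The 11 fibroblast and pericyte markers summed to 86.0 to 284 CPM in suspension against 3479 to 3729 CPM in adherent libraries. Mitochondrial genes took 1.33% to 1.58% of suspension counts and 5.78% to 11.4% of adherent counts. The part of these differences in the results below was not tested, and in whole-library counts more cells of a type and more RNA per cell cannot be told apart.

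Every oxidase subunit gene was higher in suspension than in adherent libraries on each of the 3 days, most of all the catalytic subunit. In day order (4, 5, 6), Cybb stood at 425, 550 and 621 CPM in suspension and at 10.6, 29.6 and 54.4 CPM in adherent libraries. The lowest suspension library thus lay far above the highest adherent one, and in both fractions each later day was higher. The difference was 4.08 ± 0.60 on the log2 scale (value ± approximate standard error, adjusted p = 0.00212, quasi-likelihood test in edgeR, Benjamini-Hochberg adjusted over 14912 genes). Its membrane partner Cyba was at 3455, 3330 and 3726 CPM in suspension and at 767, 1030 and 1624 CPM in adherent libraries. The fractions did not overlap, with little spread among suspension libraries and a higher adherent level on each later day, and the log2 difference was 1.62 ± 0.28 (adjusted p = 0.00354, edgeR). Of the 5 subunit genes, Cyba had the lowest log2 difference in every setting tried.

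The cytosolic subunits held an intermediate place. Ncf1, the organiser that carries the other cytosolic subunits to the membrane, was at 179, 225 and 276 CPM in suspension and at 12.6, 22.2 and 36.1 CPM in adherent libraries. Ncf4, whose product binds a phosphoinositide of the phagosome membrane, was at 185, 196 and 236 CPM in suspension and at 11.4, 27.2 and 33.3 CPM in adherent libraries. For both genes each suspension library exceeded each adherent one. The log2 difference was 3.26 ± 0.41 for Ncf1 (adjusted p = 0.00128, edgeR) and 3.10 ± 0.40 for Ncf4 (adjusted p = 0.00137, edgeR), which lie within their errors of each other. Reads of Gtf2ird2, which overlaps Ncf1, numbered 91 to 174 per library, against 544 to 13920 for Ncf1, and Gm20388, which overlaps Cyba, had 0 in all libraries.

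Rac2, the blood-cell GTPase of the complex, was at 396, 436 and 579 CPM in suspension and at 25.5, 56.8 and 104 CPM in adherent libraries. It too separated the fractions without overlap, with a log2 difference of 2.92 ± 0.51 (adjusted p = 0.00378, edgeR). Its widely expressed relative Rac1 was at 364, 363 and 388 CPM in suspension and at 297, 294 and 273 CPM in adherent libraries, with a log2 difference of 0.37 ± 0.09 (adjusted p = 0.0137, edgeR). Per 100 Rac1 counts there were 109, 120 and 149 Rac2 counts in suspension and 8.61, 19.3 and 38.2 in adherent libraries. The ratio did not overlap between the fractions (exact two-sided permutation p = 0.1, the smallest that 3 against 3 allows).

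**Figure D1:**
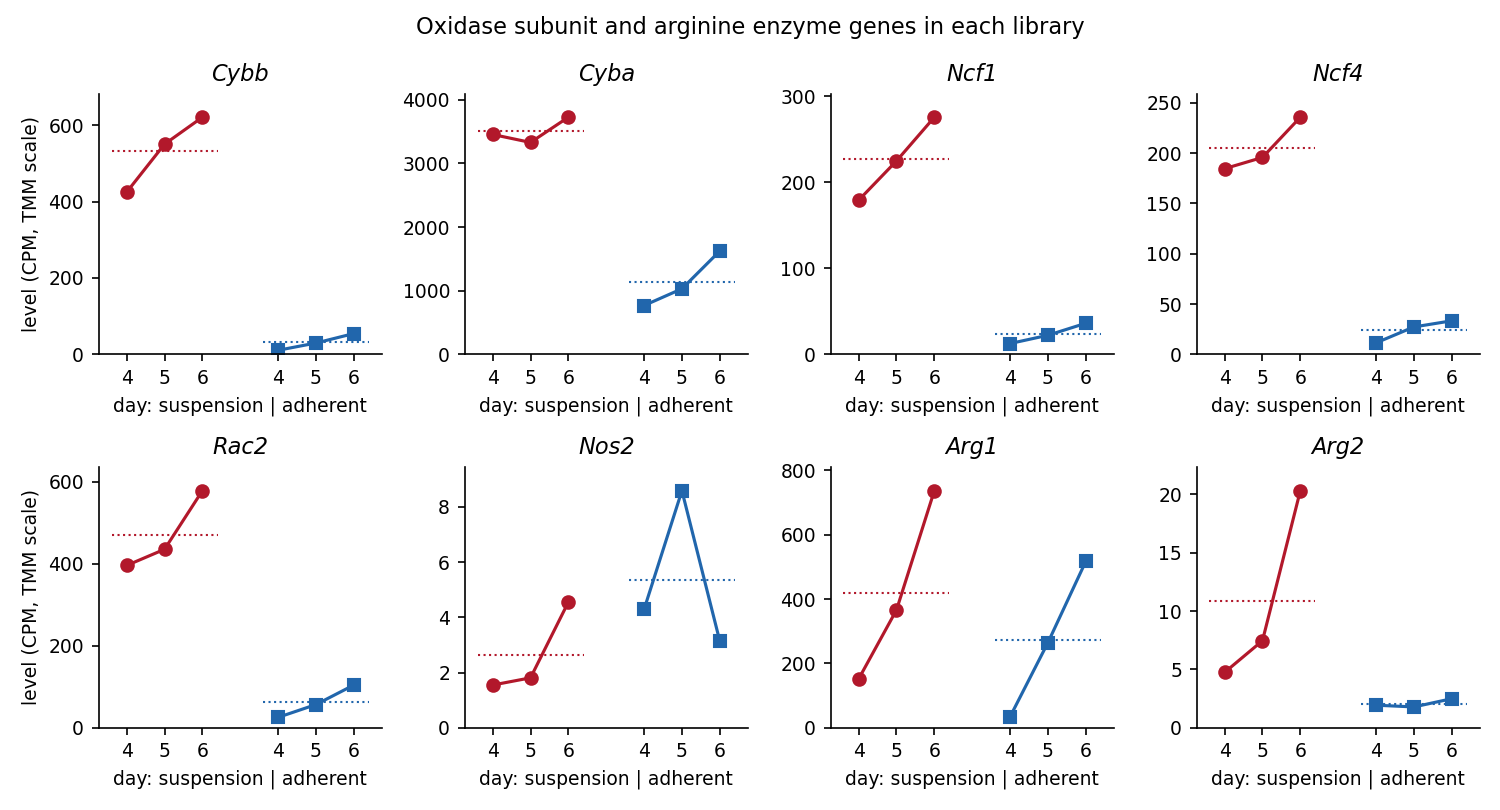
Level of each of the 8 genes in CPM on the TMM scale (vertical axis, from 0, own range per panel) in each library; the horizontal axis gives the day, with suspension libraries as red circles on the left and adherent libraries as blue squares on the right, and dotted lines at the mean of each fraction (n = 3). The 5 oxidase genes and Arg2 do not overlap between the fractions, whereas Nos2 and Arg1 do.

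The arginine enzymes behaved differently from the oxidase and from each other. Arg1 was higher on each later day in both fractions, with 152, 366 and 736 CPM in suspension and 34.2, 264 and 517 CPM in adherent libraries on the successive days. The ranges overlapped, because each fraction spanned more than the gap between them. Arg1 averaged 418 ± 296 CPM in suspension and 272 ± 241 CPM in adherent libraries (SD, n = 3 each), and the log2 difference of 0.62 ± 0.95 did not pass the test (adjusted p = 0.602, edgeR). It was -0.069 without the suspension library of day 6. Arg1 is also the liver arginase of the urea cycle. The 8 hepatocyte markers summed to 6.53 to 15.5 CPM in suspension and 2.04 to 3.37 CPM in adherent libraries, most of it Afp, and Cps1, Serpina1a and Tat had 0 counts in all libraries. Which cells carried the Arg1 reads was not tested.

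Arg2 was scarce in both fractions, at 4.75, 7.46 and 20.3 CPM in suspension and 1.94, 1.79 and 2.49 CPM in adherent libraries. Every suspension library exceeded every adherent one, by 2.39 ± 0.56 on the log2 scale (adjusted p = 0.0116, edgeR). The sense counts behind these values were 196, 313 and 1025 in suspension and 84, 71 and 107 in adherent libraries. The antisense column held 169, 127 and 186 reads at Arg2 in suspension and 173, 118 and 123 in adherent libraries, while Vti1b, which shares its last bases, had 3034 to 5600 reads and Gm48780 had 1 to 13. The column that disregards strand held only 35, 40 and 147 Arg2 reads in suspension and 13, 12 and 13 in adherent libraries. With it the log2 difference was 2.36 (adjusted p = 0.0127, edgeR). Most sense reads of Arg2 are thus not assigned to it once strand is disregarded. The Arg2 courses and ratios below use the sense reads and carry this limit.

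Nos2 was the lone gene of the 8 with a higher mean in the adherent fraction. It had 64, 76 and 230 counts in suspension, or 1.55, 1.81 and 4.55 CPM, and 186, 341 and 135 counts in adherent libraries, or 4.29, 8.59 and 3.14 CPM. The adherent libraries were higher on days 4 and 5 and the suspension library on day 6, so the fractions overlapped. The log2 difference of -1.01 ± 0.55 did not pass the test (adjusted p = 0.161, edgeR). Without the suspension library of day 6 it was -1.69 and passed (adjusted p = 0.0364, edgeR).

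In all, 6 of the 8 genes were higher in suspension, against 27.1% of all genes tested, and for the same 6 genes every suspension library exceeded every adherent one, as it did for 33.4% of all genes (34.4% for the opposite order). None of the 8 was lower in suspension by edgeR's test or by DESeq2, nor at an unadjusted p of 0.05 (0 of 8), against 29.7% of all genes. The genes were put on the list as oxidase and arginine genes and not for their values, but earlier results of these data were known.

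The ratio between the fractions was smaller on later days for the oxidase and larger for Arg2. The suspension to adherent ratio of Cybb was 40.0 on day 4, 18.6 on day 5 and 11.4 on day 6. That of Cyba was 4.50, 3.23 and 2.29, that of Ncf1 14.3, 10.1 and 7.63, that of Ncf4 16.2, 7.19 and 7.07, and that of Rac2 15.5, 7.67 and 5.54. All 5 ratios were thus highest on day 4 and lowest on day 6. The ratio of Arg2 went the other way, with 2.45, 4.17 and 8.14, and that of Arg1 was 4.43, 1.38 and 1.42. For Nos2 it was 0.361, 0.211 and 1.45.

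**Figure D2:**
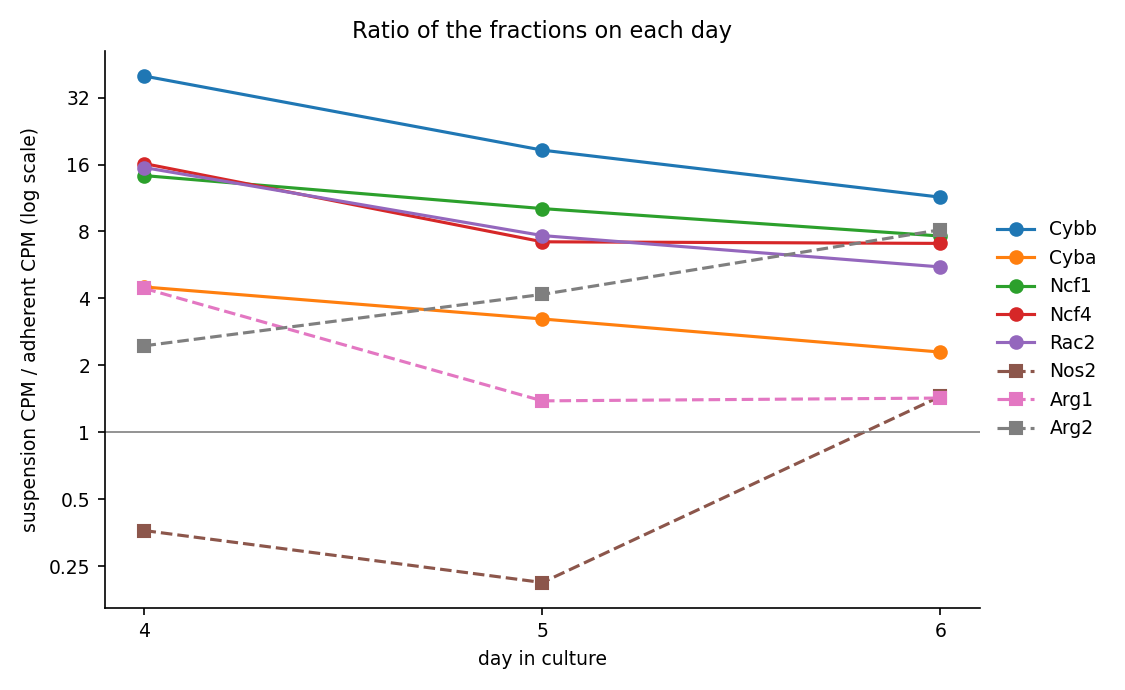
Ratio of suspension CPM to adherent CPM (vertical axis, log scale) for the libraries of the same day (horizontal axis, days 4 to 6), with 1 line per gene, solid for oxidase genes and dashed for arginine enzymes; the grey line marks equal levels. The oxidase lines run downwards, Cybb to 11.4 on day 6, the Arg2 line runs upwards to 8.14, and Nos2 lies below 1 on days 4 and 5.

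Within the adherent fraction, 6 of the 8 genes rose with the day by edgeR's test, against 7.75% of all genes tested, and 0 fell, against 3.52%. At an unadjusted p of 0.05 and with DESeq2 0 fell as well, with no all-gene share given for either. Arg1 had the steepest slope, 1.95 ± 0.31 log2 units per day (adjusted p = 0.0237, edgeR), and its level on day 6 was 15.1 times that on day 4. Cybb followed with 1.17 ± 0.10 (adjusted p = 0.00977, edgeR) and Rac2 with 1.01 ± 0.08 (adjusted p = 0.00954, edgeR), and their day 6 levels were 5.13 and 4.09 times those of day 4. The slopes of Ncf4, Ncf1 and Cyba were 0.77 ± 0.14, 0.76 ± 0.06 and 0.54 ± 0.07, with adjusted p of 0.0339, 0.00954 and 0.0169 (edgeR). The slope of Arg2 was 0.18 ± 0.17 (adjusted p = 0.523, edgeR) and that of Nos2 -0.22 ± 0.43 (adjusted p = 0.776, edgeR). With 2 residual degrees of freedom these calls rest on few libraries: 3 genes passed when suspension day 4 was left out, 3 when suspension day 5 was, and 3 when adherent day 4 was. The genes that passed in every such fit were Cybb and Rac2. Over the same adherent libraries the macrophage markers summed to 3053, 3856 and 7739 CPM, with 9 of 14 positive slopes that passed, the neutrophil markers summed to 275, 927 and 1189 CPM, and the mitochondrial share was 11.4%, 7.44% and 5.78%. Of 9 tested epithelial markers, 4 had a negative slope that passed there, Krt18 with -1.51 ± 0.09 per day (adjusted p = 0.00896, edgeR) among them. The part of these in the slopes was not tested.

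In suspension none of the 8 slopes passed edgeR's test, where 0.0939% of all genes had a positive call. Of these slopes, 5 had an unadjusted p of at most 0.05 and 3 passed with DESeq2, with no all-gene share given for either. The steepest were Arg1, with 1.14 ± 0.27 per day (adjusted p = 0.148, edgeR), and Arg2, with 1.06 ± 0.16 (adjusted p = 0.0681, edgeR). Their day 6 levels were 4.85 and 4.28 times those of day 4. Cybb and Rac2 each stood at 1.46 times their day 4 level, Ncf1 at 1.54 times, Ncf4 at 1.28 times and Cyba at 1.08 times. In CPM, 7 of the 8 genes were higher on each later day in suspension, a course found in 24.1% of all genes (24.9% ran the opposite way), and 6 did so in adherent libraries, against 33.5% of all genes (21.9% the opposite way). A slope common to both fractions passed for 0 of the 8 in edgeR (background 0.0134%). At an unadjusted p of at most 0.05 there were 6, and 4 passed with DESeq2, again with no all-gene share given. The steepest common slope was again that of Arg1, 1.495 ± 0.27 per day (adjusted p = 0.128, edgeR).

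**Figure D3:**
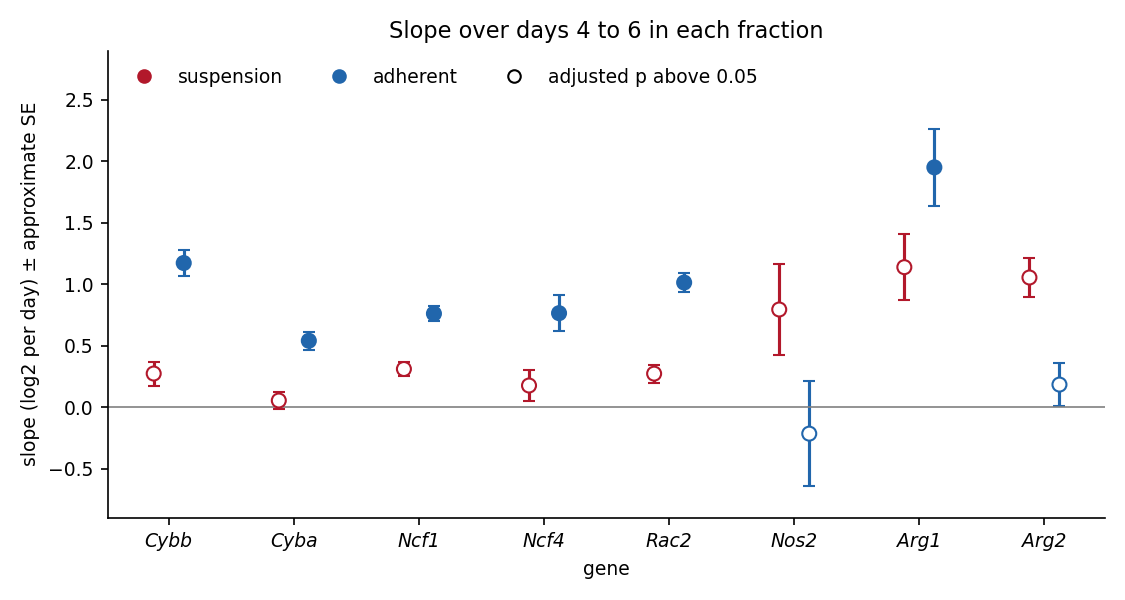
Slope over days 4 to 6 in log2 units per day (vertical axis) for each gene (horizontal axis), in suspension (red, left) and adherent libraries (blue, right); bars are approximate standard errors, filled circles passed edgeR's test at an adjusted p of 0.05. The oxidase genes have the higher slope in adherent libraries, Cybb with 1.17, and Arg2 has the higher slope in suspension, with 1.06.

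The difference of the slopes, suspension minus adherent, was negative for all 5 oxidase genes and positive for Arg2. By gene, the slope difference was -0.90 ± 0.14 for Cybb (adjusted p = 0.0699, edgeR), -0.74 ± 0.11 for Rac2 (adjusted p = 0.0634), -0.45 ± 0.08 for Ncf1 (adjusted p = 0.0829), -0.49 ± 0.10 for Cyba (adjusted p = 0.0986) and -0.59 ± 0.19 for Ncf4 (adjusted p = 0.195). For Arg2 it was 0.87 ± 0.23 (adjusted p = 0.142, edgeR), for Arg1 -0.81 ± 0.40 (adjusted p = 0.336) and for Nos2 1.01 ± 0.56 (adjusted p = 0.387). None of the 8 passed edgeR's test, against 0.516% of all genes, 0.463% with a negative and 0.0536% with a positive call. Of the differences, 5 negative and 1 positive had an unadjusted p of at most 0.05. With DESeq2, 4 negative ones passed, and no all-gene share is given for either measure. With the collection day, which both fractions share, as a replicate block, 4 negative differences and 1 positive difference passed: Cybb (adjusted p = 0.0101), Rac2 (0.0175), Ncf1 (0.0437) and Cyba (0.0493) in edgeR, and Arg2 (0.0477). In that fit 5.45% of all genes had a negative and 0.832% a positive call. With the block the fit leaves 1 residual degree of freedom, against 2 without it, so its calls are not the firmer ones.

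Genes of blood cells in general rose along with the oxidase in adherent libraries. The 8 leukocyte genes, among them Ptprc (CD45) and Spi1 (PU.1), summed to 8116, 8426 and 9207 CPM in suspension and to 871, 1361 and 2723 CPM in adherent libraries, where day 6 was 3.13 times day 4. All 8 had a positive slope that passed in adherent libraries, against 7.75% of all genes. Each gene was therefore also set against the Ptprc count of its own library. Per 100 Ptprc counts, Cybb had 256, 277 and 249 counts in suspension and 84.9, 147 and 142 in adherent libraries. The suspension values were level and remained above the adherent ones, by 1.11 on the log2 scale, where CPM gave 4.08. Cyba was the reverse, with 2081, 1674 and 1496 in suspension and 6136, 5118 and 4226 in adherent libraries, again without overlap. For both, the exact two-sided permutation p was 0.1, the smallest possible.

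The cytosolic subunits and Rac2 kept close to Ptprc. Ncf1 had 108, 113 and 111 counts per 100 Ptprc counts in suspension and 100.4, 110.1 and 94.0 in adherent libraries. Ncf4 had 111, 98.4 and 94.7 in suspension and 91.3, 135 and 86.8 in adherent libraries, and Rac2 had 239, 219 and 232 in suspension and 204, 282 and 272 in adherent libraries. All 3 overlapped between the fractions (exact two-sided permutation p = 0.2, 1 and 0.4). With the sum of the 8 leukocyte genes as the denominator the same 3 genes did not overlap and were higher in suspension, by 0.83, 0.69 and 0.59 on the log2 scale, so their place depends on which blood cell genes they are set against. With that sum, Cybb differed by 1.81 and Cyba by -0.85.

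Set against Ptprc, the arginine enzymes stood higher in adherent libraries by mean. Nos2 had 0.934, 0.910 and 1.83 counts per 100 Ptprc counts in suspension and 34.3, 42.7 and 8.19 in adherent libraries, which did not overlap (exact two-sided permutation p = 0.1, the smallest possible). Arg1 had 91.4, 184 and 296 in suspension and 274, 1314 and 1345 in adherent libraries. The ranges overlapped (exact p = 0.2), since suspension on day 6 exceeded adherent on day 4. Arg2 had 2.86, 3.75 and 8.15 in suspension and 15.5, 8.89 and 6.49 in adherent libraries, higher on each later day in suspension and lower on each later day in adherent libraries. Which cells carried these reads was not tested, as the tables have no cells.

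**Figure D4:**
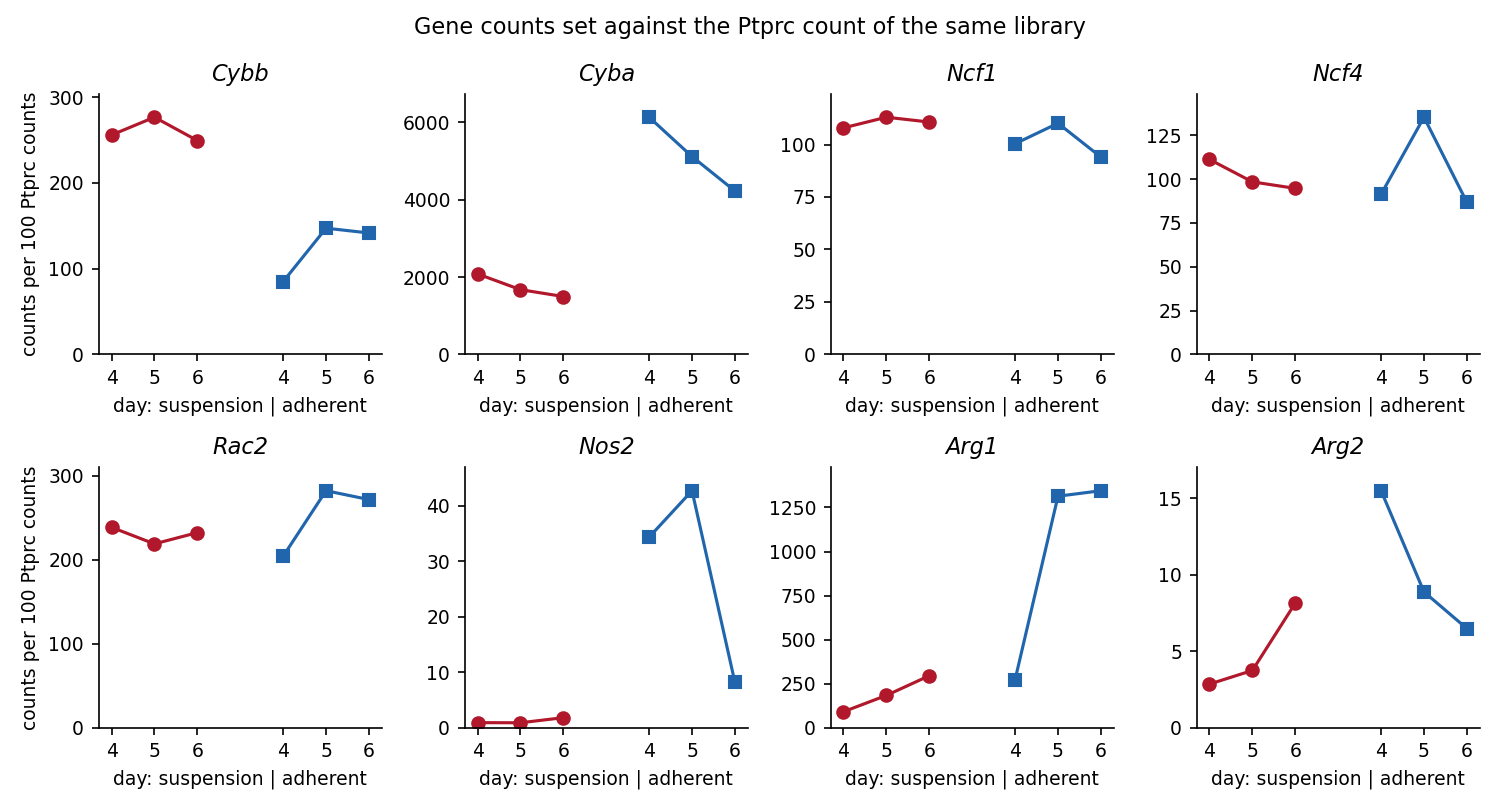
Counts of each gene per 100 Ptprc counts of the same library (vertical axis, from 0, own range per panel) by day, suspension as red circles on the left and adherent as blue squares on the right. Cybb is higher and Cyba lower in suspension on every day, Ncf1, Ncf4 and Rac2 overlap, and Nos2 is at most 1.83 in suspension and at least 8.19 in adherent libraries.

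Ratios between genes were compared across libraries, where gene length cancels. There were 12.3, 16.5 and 16.7 Cybb counts per 100 Cyba counts in suspension and 1.38, 2.88 and 3.35 in adherent libraries, with no overlap (exact two-sided permutation p = 0.1, the smallest possible). Ncf1 per 100 Ncf4 counts overlapped, at 97.0, 115 and 117 in suspension and 109.9, 81.4 and 108 in adherent libraries (exact p = 0.5). Among the arginine enzymes, Arg2 per 100 Arg1 counts was 3.13, 2.04 and 2.76 in suspension and 5.66, 0.676 and 0.482 in adherent libraries. Nos2 per 100 Arg1 counts was 1.02, 0.495 and 0.619 in suspension and 12.5, 3.25 and 0.609 in adherent libraries, so the libraries of day 6 were alike and those of day 4 lay furthest apart. Neither arginine ratio separated the fractions (exact p = 0.4 and 0.3).

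The genes that assemble and activate the oxidase were higher in suspension throughout: all 12 of the 12 listed passed, against 27.1% of all genes, with a median log2 difference of 2.17, where the median over all genes was near 0 (-0.00247). This was not particular to them. All 8 leukocyte genes (median 2.66), all 14 neutrophil markers (median 6.05) and 12 of 14 macrophage markers (median 1.85) were higher too, with 0 lower. Arhgdib, a GDP dissociation inhibitor of blood cells that holds Rac2 in the cytosol, averaged 1033 ± 184 CPM in suspension and 183 ± 51.2 CPM in adherent libraries (SD, n = 3 each), a log2 difference of 2.49 ± 0.24 (adjusted p = 0.000649, edgeR). The smallest difference among the 12 assembly genes was that of Rac1, given above, followed by Rap1a, a small GTPase that copurifies with the membrane core, at 0.59 ± 0.12 (adjusted p = 0.00717, edgeR). In adherent libraries 6 of the 12 had a positive slope that passed, against 7.75% of all genes, among them Arhgdib (0.38 ± 0.07 per day) and Dock2, an exchange factor for Rac (0.72 ± 0.07). This count was 3 when any suspension library was left out, 2 without adherent day 4 and 1 without adherent day 6.

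Other NADPH oxidases were scarce. Of 9 listed genes 3 could be tested, and Nox3 and Duoxa2 had 0 counts in all libraries. Nox4, an oxidase of vascular and mesenchymal cells that needs Cyba as its partner, was at 0.291, 0.262 and 0.0198 CPM in suspension and at 7.52, 8.84 and 7.62 CPM in adherent libraries. It was lower in suspension by a wide margin, with a log2 difference of -5.41 ± 0.67 (adjusted p = 0.00125, edgeR), the opposite direction to Cybb. Which cells held the Cyba reads of adherent libraries was not tested.

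Of 16 genes of arginine supply and use 15 were tested, 7 were higher in suspension, against 27.1% of all genes, and 4 lower, near the 29.7% of all genes. Those higher included Sat1, which acetylates polyamines (log2 difference 1.08 ± 0.35, adjusted p = 0.0365, edgeR), the transporter chain Slc3a2 (0.75 ± 0.13, adjusted p = 0.00337) and Azin1, an antizyme inhibitor (1.01 ± 0.17, adjusted p = 0.00339). Lower were Oat, which passes ornithine towards proline (-0.93 ± 0.21, adjusted p = 0.0099), Odc1, which makes putrescine from ornithine (-1.004 ± 0.26, adjusted p = 0.0156), and Ass1, which rebuilds arginine from citrulline. Ass1 was at 4.53, 3.07 and 2.14 CPM in suspension and at 15.1, 15.8 and 8.55 CPM in adherent libraries, a log2 difference of -2.02 ± 0.36 (adjusted p = 0.00413, edgeR). The arginine transporter Slc7a2 was at 37.0, 44.5 and 24.7 CPM in suspension and at 3.95, 8.82 and 16.6 CPM in adherent libraries, where its slope of 1.03 ± 0.17 per day passed (adjusted p = 0.0265, edgeR), as did that of Sat1 (0.65 ± 0.06, adjusted p = 0.0098); neither passed without adherent day 4 or without adherent day 6. Srm, which makes spermidine, had a negative adherent slope that passed, -0.45 ± 0.10 per day (adjusted p = 0.0445, edgeR), though not when any suspension library or adherent day 6 was left out.

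Of 9 genes of nitric oxide synthesis 8 were tested, and 2 were higher in suspension, near the 27.1% of all genes, and 4 lower, against 29.7%. Higher were Pts (1.04 ± 0.15, adjusted p = 0.00184, edgeR) and Gch1 (0.70 ± 0.19, adjusted p = 0.0202), which make the cofactor tetrahydrobiopterin, while Spr, the last step of that route, was lower (-0.98 ± 0.12, adjusted p = 0.0013). The dimethylarginine hydrolases, which remove an inhibitor of nitric oxide synthases, were lower too, with log2 differences of -3.78 ± 0.30 for Ddah2 (adjusted p = 0.000462, edgeR) and -3.70 ± 0.74 for Ddah1 (adjusted p = 0.00637). Nos3, the endothelial synthase, was at 2.32, 1.43 and 1.11 CPM in suspension and at 13.8, 22.9 and 5.87 CPM in adherent libraries (log2 difference -3.13 ± 0.56, adjusted p = 0.00413, edgeR). The adherent level of Nos2 and that of Nos3 both peaked on day 5 and were lowest on day 6. The 12 endothelial markers summed to 874, 1730 and 666 CPM in the same adherent libraries, and their part in the Nos2 values was not tested.

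Genes that handle superoxide and peroxide, the products of the oxidase, were mixed, with 8 of 20 tested higher and 6 lower in suspension, against the 27.1% and 29.7% of all genes. Thioredoxin Txn1 (0.996 ± 0.13, adjusted p = 0.00143, edgeR), glutathione peroxidase Gpx1 (1.37 ± 0.09, adjusted p = 0.000365) and Prdx5 (1.02 ± 0.17, adjusted p = 0.00345) were higher, and the peroxiredoxins Prdx2, Prdx4 and Prdx6 were lower, with log2 differences between -1.09 and -0.89. Mpo, which uses peroxide to make hypochlorous acid in neutrophil granules, was at 293, 296 and 159 CPM in suspension and at 0.115, 7.66 and 8.29 CPM in adherent libraries. It passed with a log2 difference of 5.54 ± 1.20 (adjusted p = 0.00848, edgeR), and unlike Cybb it was lowest on day 6 in suspension. Gpx3, a secreted glutathione peroxidase, was at 103, 136 and 175 CPM in suspension and at 69.6, 260 and 684 CPM in adherent libraries, and its slopes differed between the fractions by -1.27 ± 0.12 per day (adjusted p = 0.0485, edgeR), a call lost with counts thinned to the smallest library, without any suspension library or without adherent day 4.

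Of 11 genes commonly induced with Nos2 by interferon and bacterial products 9 were tested, and 5 were higher in suspension and 1 lower, against 27.1% and 29.7% of all genes. Those higher included Irf5 (1.77 ± 0.37, adjusted p = 0.0078, edgeR) and the co-stimulatory ligand Cd86 (1.91 ± 0.41, adjusted p = 0.00859). Lower was Ptgs2, an inducible cyclooxygenase, at 2.11, 1.10 and 0.772 CPM in suspension and at 10.6, 13.2 and 4.61 CPM in adherent libraries (log2 difference -2.84 ± 0.53, adjusted p = 0.00501, edgeR). A list of 14 genes called M2-like, a state linked to interleukin 4 and Arg1, had 12 tested. Of these, 7 were higher in suspension, against 27.1% of all genes. The chitinase-like Chil3 was at 1405, 2154 and 3457 CPM in suspension and at 17.3, 30.1 and 109 CPM in adherent libraries (log2 difference 5.49 ± 0.85, adjusted p = 0.00246, edgeR). The mannose receptor Mrc1 differed by 1.80 ± 0.42 (adjusted p = 0.0109) and the receptor chain Il4ra by 0.50 ± 0.16 (adjusted p = 0.0373). Retnla, another gene of the M2-like list, was at 0.533, 0.167 and 0 CPM in suspension and at 1.45, 1.03 and 1.86 CPM in adherent libraries and did not pass.

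**Figure D5:**
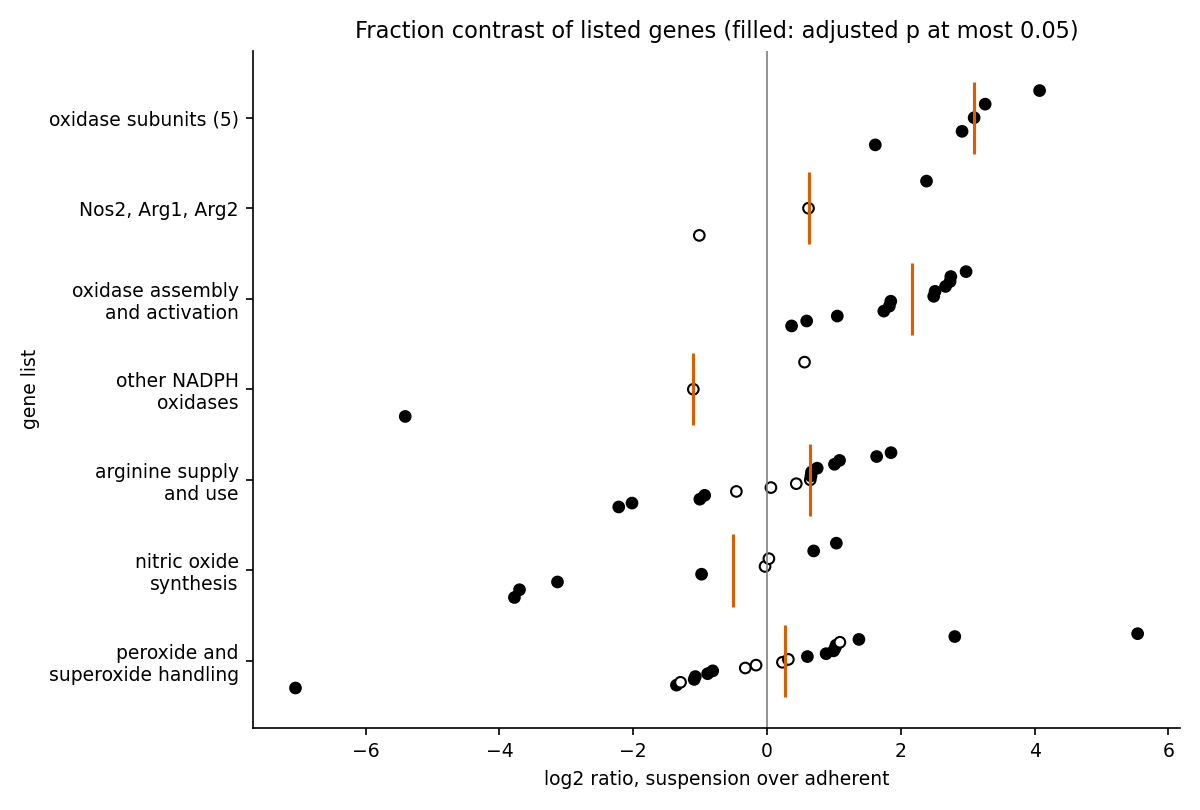
Log2 ratio of suspension over adherent libraries (horizontal axis) for the tested genes of 7 lists (rows), 1 circle per gene, filled where the adjusted p in edgeR was at most 0.05; orange lines mark list medians. All 12 assembly genes lie to the right of 0 with the 5 subunits, whereas the arginine, nitric oxide and peroxide lists spread to both sides.

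Across the 6 libraries, likeness of course was measured as the root mean square difference of centred log2(CPM + 0.5), over 8347 genes with a mean of at least 10 CPM. Among the nearest to Cybb were Mcemp1 (0.20) and Ltb4r1 (0.25). Nearest to Cyba were H2-D1 (0.07), Atp6v1b2 (0.08) and Spaca9 (0.08), and nearest to Ncf1 were Arhgap15 (0.07), Ptprc (0.09) and I830077J02Rik (0.11). The last of these was also nearest to Ncf4 (0.10), followed by Selplg (0.13) and Bin2 (0.14), and Selplg again stood beside Rac2 (0.12) with Ebi3 (0.11) and Cd300lf (0.13). Arg1 had no close match: Ccl4, a chemokine, came first at 0.43, with 67.9, 91.6 and 198 CPM in suspension and 19.2, 72.1 and 165 CPM in adherent libraries, then Lbp (0.62) and Cxcl3 (0.65). Pearson's r with the gene in question was between 0.895 and 0.9999 for these genes, a description over 6 libraries that share fraction and day. Nos2 and Arg2, with means below 10 CPM, were not compared. Among the members themselves the closest were Ncf1 and Ncf4 (0.18), Ncf4 and Rac2 (0.20) and Ncf1 and Rac2 (0.20), and the farthest were Cybb and Nos2 (2.76).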

How the data were processed

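The deposited tables hold raw read counts per gene, made by the authors with bcl2fastq, Cell Ranger and STARsolo on mm10, per the submitters' processing notes; their versions, and the annotation, were not given in the sources used here. Each table has 31053 identifiers, 4 summary lines and counts on either strand, the sense and the antisense strand. Sense counts were used, and the summary lines were left out; reads with no gene on the sense strand were 16.7% to 24.2% of all reads listed in a table. GENCODE M21 named 31011 identifiers.

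Genes passing filterByExpr (14912 of 22019 with a count) were scaled by TMM and tested in edgeR 4.0.16 (limma 3.58.1, R 4.3.3) by quasi-likelihood F tests, adjusted by Benjamini-Hochberg at 0.05. In the main fits the fraction contrast had 4 residual degrees of freedom, the common slope 3 and the slopes 2. A day block or a left-out library leaves fewer. The standard error is the absolute log2 value over the square root of F. The 3 days serve as libraries of a fraction. The labels give both fractions a shared day, so day was used as a block in an alternative. Deviations from the mean of each fraction correlated at 0.338, 0.140 and 0.282 for the same day, against -0.305 to 0.013 otherwise. Taking deviations from that mean lowers the other-day values where the same-day ones are positive. A course over days common to both fractions gives the same contrast, so these values cannot show pairing. Other alternatives were reads on either strand, other size factors, DESeq2 1.42.0, other low-count filters, thinning to the smallest library, a 2-fold null, the 20 highest genes left out, and each library left out. The scripts were tested on simulated data.

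Members, lists (21, with 219 genes) and tests were chosen with earlier results of these data known. From each pathway list and comparison the text names the 3 called genes of highest mean CPM per direction, except a few items not reported here; Slc7a2, Nos3, Mpo, Gpx3 and Retnla were chosen after their values were seen. Members are always named, with the 3 nearest genes of each one above 10 CPM.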

Additional observations from a re-analysis of the deposited data

Results flagged for a closer look

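Reads on the antisense strand of the 8 genes were not part of any comparison, and each gene had more than 3 of them in its highest library. The highest antisense read count was 1407 for Cybb, 138 for Cyba, 416 for Ncf1, 48 for Ncf4, 365 for Rac2, 29 for Nos2, 517 for Arg1 and 186 for Arg2. For Cybb, Cyba, Ncf1, Ncf4, Rac2 and Arg1 they came to at most 4.49% of the sense count in any library, below the 6.66% to 7.87% over all genes. For Nos2 they reached 18.8%, or 12 reads, in suspension on day 4 and were 0 in adherent libraries of days 4 and 5. For Arg2 they were 18.1% to 86.2% of the sense count in suspension and 115% to 206% in adherent libraries. Groups of 3 libraries are too small to mark a library as apart from its group.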

How the results depend on the processing

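The fraction contrast was the most stable comparison: of 118 recomputed values of the 8 genes, 116 kept direction and call, and 6 genes were higher in each alternative except a filter of 10 CPM in 3 libraries, which left Arg2 and Nos2 untested and gave 5. With the collection day as a replicate block 6 were higher. Leaving out a library, 0 to 1 members were lower; the difference of Arg1 ranged from -0.0693 (without suspension day 6) to 1.49. The common slope passed for 4 with DESeq2 and for Nos2 ranged from -0.15 (without suspension day 6) to 0.83. In suspension 3 slopes passed with no filter, 3 with DESeq2, and 0 to 2 without a library, 2 without each adherent one; that of Cyba ranged from -0.0517 (without suspension day 6) to 0.12. In adherent libraries 3 to 6 passed without a library. There Nos2 ranged from -1.45 to 1.001 (without adherent day 6) and Arg2 from -0.12 (without adherent day 6) to 0.48, and Arg2 was -0.0047 with reads on either strand. Negative slope differences passed for 4 with no filter, 4 with DESeq2, 4 with day as a replicate block, and 0 to 5 without a library (5 without adherent day 5, 1 without adherent day 6), and 1 positive one passed with the block. That of Nos2 ranged from -0.20 (without adherent day 6) to 2.25 and that of Arg1 from -1.81 to 0.17 (without adherent day 4). Per leukocyte sum in place of Ptprc, the log2 difference was 1.81 for Cybb, -0.85 for Cyba, 0.83 for Ncf1, 0.69 for Ncf4 and 0.59 for Rac2, against 1.11, -1.56, 0.13, -0.016 and -0.12. Against a 2-fold difference all 6 members remained higher, but list counts were smaller. This test is stricter for every gene and no all-gene share is given for it. The smaller counts are thus not set against a background. Arginine supply had 1 higher and 2 lower, in place of 7 and 4, and nitric oxide synthesis 0 higher in place of 2. Peroxide handling had 3 and 1 in place of 8 and 6. Genes induced with Nos2 had 2 higher in place of 5, and the M2-like list 4 in place of 7. The causes were not tested. Low counts limit Nos2 and Arg2, with 64 and 71 sense counts in their lowest libraries. With strand disregarded, Arg2 had 12 counts in adherent day 5.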
